A study of Homo sapiens with 4 samples.

Results

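The miRNAs described here are hsa-miR-124, hsa-miR-9, hsa-miR-128, hsa-miR-137 and hsa-miR-153, which are enriched in nerve cells and are written below without the prefix for human. They were chosen by name, as the 5 capture probes that carry exactly these names on the miRNA array, out of 1276 probes for human miRNAs and 1422 for human and viral miRNAs together. miRNA levels were measured on 4 arrays (Exiqon, 6th generation), with total RNA labeled in a single color (Hy3), in HT-29 and LS174T, established lines of human colon cancer. Of each line, the shRNA-Ascl2 cells carried an shRNA-Ascl2/EGFP plasmid against Ascl2, a bHLH transcription factor of intestinal stem cells. The shRNA-Ctr cells carried the pGenesil-1.1 plasmid (shRNA-Ctr/EGFP) with no insert, so each comparison within a line also sets cells with an shRNA against cells without one. All 4 transfectants were stable and grew under the antibiotic G418, the methods speak of independent stable clones, and the labels do not say which was arrayed. The array measures miRNAs, so Ascl2 itself was not read. Neither the labels nor the scanner tables say whether slides or scans differed, so such a difference cannot be told apart from any ratio of 2 arrays. Each of the 4 conditions had 1 array, so no p was computed within a line, and each SD below is over the 4 spots of a probe on 1 array and covers technical spread only.

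A miRNA is a short RNA that pairs, mainly through its seed (bases 2 to 8 from its 5′ end), with the transcripts it represses. miR-124 is the most abundant miRNA of mature neurons and represses transcripts of non-neuronal cells, including that of the splicing regulator PTBP1. miR-9 and its partner arm miR-9* act in neural progenitors and young neurons, where they repress the neuronal silencer REST and its cofactor CoREST. miR-128 is enriched in the brain and represses the Polycomb gene BMI1, miR-137 acts in neuronal maturation, and miR-153 is enriched in the brain as well. In colorectal tumors the genes of miR-124, miR-9 and miR-137 are known to lie at CpG islands that can be methylated, and methylation was not measured here.

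The mature sequences of 4 of the 5 miRNAs were matched in RefSeq (GRCh38.p14), and they are shown because the array reads these arms and because their seeds tell the families apart. Capitals mark the seed.
miR-9: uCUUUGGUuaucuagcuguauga
miR-128: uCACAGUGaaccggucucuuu
miR-137: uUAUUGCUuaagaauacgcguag
miR-153: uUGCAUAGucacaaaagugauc

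The 4 seeds differ from each other, so the levels below are not those of 1 seed family. Mature miR-9 is encoded by 3 genes, MIR9-1 (chr1:156420392-156420414, minus strand), MIR9-2 (chr5:88666902-88666924, minus strand) and MIR9-3 (chr15:89368032-89368054, plus strand), and its probe cannot tell them apart. Mature miR-128 is encoded by 2 genes, MIR128-1 (chr2:135665446-135665466, plus strand) and MIR128-2 (chr3:35744527-35744547, plus strand). miR-137 lies at chr1:98046091-98046113 (minus strand) and the MIR153-1 copy of miR-153 at chr2:219294126-219294147 (minus strand). The hairpin of MIR9-1 (chr1:156420341-156420429, minus strand, 89 bases) is shown because the array has a probe for each of its arms. Capitals mark first miR-9 and then miR-9*.
MIR9-1 hairpin: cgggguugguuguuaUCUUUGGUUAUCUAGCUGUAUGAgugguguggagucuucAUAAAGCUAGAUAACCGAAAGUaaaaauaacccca

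On every array, intensities are foreground minus background, averaged over the 4 spots of a probe. Ratios are shRNA-Ascl2 over shRNA-Ctr after division of an array by the median of those miRNA probes that were above 50 on both arrays of the line, and a miRNA was called at a ratio of 2 or more, or 0.5 or less, provided that the brighter array exceeded 50. The 1108 empty spots of each array had a median of 0 and a 99th percentile of 13 to 21, and 0 or 1 of the 7 negative control probes were above 50 on an array. Between 529 and 549 of the human probes were above 50. Epithelial miRNAs (the miR-200 family, miR-192, miR-194 and miR-215) were present, with 7 or 8 of 8 above 50 on each array, while 0 to 2 of 6 markers of stroma, endothelium and muscle were. Blood miRNAs were measured too, with 3 of 5 above 50 on both HT-29 arrays. In LS174T, all 5 passed this limit in control cells and 2 did in cells with the shRNA. Of these, miR-142-3p and miR-150 were above 50 on all 4 arrays. In HT-29, miR-142-3p was at 1437 with shRNA-Ascl2 and 966 with shRNA-Ctr. With RNA of whole cultures, more cells with a miRNA and more of that miRNA per cell cannot be told apart.

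In the plot of spots by array, miR-124 was measured on all 4 arrays, miR-128 on 3 and miR-9 on both LS174T arrays, whereas miR-137 and miR-153 lay at the background throughout.

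**Figure D1:**
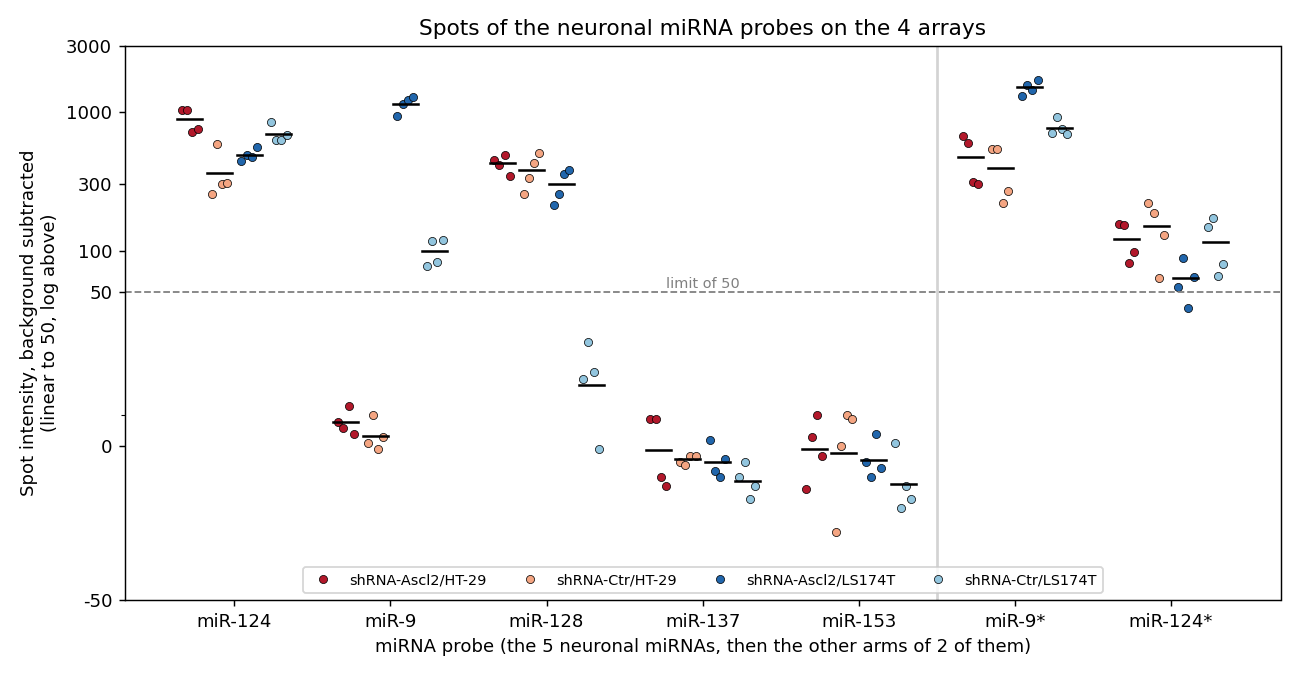
Background-subtracted intensity of each spot (points, 4 a probe and array) and its mean (bar), on an axis that is linear up to 50 and logarithmic above, for the 5 neuronal miRNAs and, right of the grey line, the other arms of miR-9 and miR-124. The dashed line is the limit of 50. miR-9 spots lie between 936 and 1294 on the shRNA-Ascl2/LS174T array, between 78 and 120 on shRNA-Ctr/LS174T, and at 13 or below on both HT-29 arrays.

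miR-124, the miRNA of mature neurons, was higher in shRNA-Ascl2/HT-29 than in shRNA-Ctr/HT-29 cells and did not pass the 2-fold limit in LS174T. Its intensity in HT-29 was 885 ± 177 with shRNA-Ascl2 and 365 ± 153 with shRNA-Ctr, and in LS174T it was 492 ± 48.0 with shRNA-Ascl2 and 697 ± 102 with shRNA-Ctr. In HT-29 the spots did not overlap, with 713 to 1040 in shRNA-Ascl2 against 257 to 591 in shRNA-Ctr cells. In LS174T they did not overlap either, but the shRNA-Ascl2 spots were the lower ones, with 443 to 557 against 629 to 846. Here and below, spots are technical repeats on 1 array, and the share of all probes without overlap was not counted. The ratio was 2.65 in HT-29 (log2 1.41, SD over spots 0.67) and 0.685 in LS174T (log2 -0.55, SD over spots 0.25). Only miR-124 was called among the neuronal miRNAs in HT-29, 1 of the 2 that were above 50 there, against 4.63% of all 627 probes called up, 8.45% called down and 13.1% called in either direction. Its ratio was the 7th highest of the 627, counting values below 50 as 50.

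Each probe has 2 spots in blocks 1 to 18 of the array and 2 in blocks 19 to 36, and the landmark controls, spike-ins with spots in every block, show how even an array was. For miR-124 the spots lie in blocks 12 and 30. The landmark signal of block 12, relative to the array's own median, was 1.78 on the HT-29 array with shRNA-Ascl2 and 0.937 on that with shRNA-Ctr, and in block 30 it was 0.815 and 0.959. The miR-124 ratio in HT-29 stayed between 2.22 and 3.24 over the 13 ways of processing, including each block range alone and division by the landmark signal, and was called in all 13. In LS174T it was between 0.0813 and 0.746, and the lowest value, from scaling by the spike-in controls, was the only one called.

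The other arm, miR-124*, was at 121 with shRNA-Ascl2 and 150.25 with shRNA-Ctr in HT-29, and at 63.0 and 116 in LS174T. It was not called in either line, at ratios of 0.883 in HT-29 and 0.528 in LS174T, and it was thus not higher with miR-124 on the shRNA-Ascl2/HT-29 array. Scaled on the 471 probes above 50 on all 4 arrays, miR-124 was at 852 in shRNA-Ascl2/HT-29, 735 in shRNA-Ctr/LS174T, 541 in shRNA-Ascl2/LS174T and 327 in shRNA-Ctr/HT-29. The order of the vectors in LS174T was thus opposite to that in HT-29. Among 435 human probes above 50 on all 4 arrays, those whose centered log2 levels lay nearest to the pattern of miR-124 were miR-3618 (distance 0.28), miR-885-5p (0.32) and miR-375 (0.41), a miRNA of endocrine cells. miR-3618 was at ratios of 2.25 in HT-29 and 0.748 in LS174T, miR-885-5p at 2.09 and 0.765, and miR-375 at 2.03 and 0.914. These probes were chosen by that pattern, so ratios like those of miR-124 follow from the choice. miR-3618 was dim, with an intensity of 51 on shRNA-Ctr/HT-29 and of 105 on shRNA-Ascl2/HT-29. A ratio under 1 in LS174T was common among the 536 human probes measured in both lines, with 295 of them, and among the 19 of these that were called up in HT-29 there were 13.

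miR-9, the miRNA of neural progenitors, was at the level of the empty spots in HT-29 and well above it in LS174T, where it was higher in shRNA-Ascl2 cells. In HT-29 its intensity was 7.75 ± 3.86 with shRNA-Ascl2 and 3.25 ± 4.79 with shRNA-Ctr, and in LS174T 1150.5 ± 156 with shRNA-Ascl2 and 99.8 ± 22.3 with shRNA-Ctr. No ratio was taken in HT-29, where the probe exceeded 50 on neither array. Of the 8 spots there, 0 were above the 99th percentile of the empty spots. In LS174T all 8 were, and the lowest shRNA-Ascl2 spot (936) lay far above the highest shRNA-Ctr spot (120). The ratio in LS174T was 11.2 (log2 3.49, SD over spots 0.38), and 20 of the 669 probes, itself included, were at least as high. Together with miR-128, miR-9 made up the 2 called of the 3 neuronal miRNAs measured in LS174T. In that line 26.8% of all probes were called up, 27.7% called down and 54.4% either way, so calls were far more frequent than in HT-29.

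The miR-9 spots in blocks 9 and 27 gave similar ratios, 12.0 from blocks 1 to 18 and 10.1 from blocks 19 to 36, and the landmark signal of these blocks was between 0.857 and 1.11 on the LS174T arrays. With another background correction (normexp, here and below with an offset of 50 added to every spot) the ratio was 6.46. Such an offset by itself draws a ratio towards 1. Without subtraction of the background the miR-9 ratio was 7.72. With scaling by the spike-in controls it was 1.33 and not called. Between the lines, arrays were scaled on the 471 probes above 50 on all 4 arrays, with values below 50 counted as 50. On this scale miR-9 was at least 25.3-fold higher in shRNA-Ascl2/LS174T than in shRNA-Ascl2/HT-29 cells. It was at least 2.10-fold higher in shRNA-Ctr/LS174T than in shRNA-Ctr/HT-29 cells. Both bounds hold for this scaling only.

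miR-9*, cut from the same hairpins, was above 50 on all 4 arrays. It was at 473 ± 193 with shRNA-Ascl2 and 392.5 ± 171 with shRNA-Ctr in HT-29, where the spots overlapped, and at 1504.5 ± 166 and 768 ± 104 in LS174T, where they did not. The LS174T arrays were thus the higher ones for both arms, while in HT-29 only the probe of miR-9* gave a signal above the limit. The probes' specificity was not tested. The miR-9* ratio was 1.32 in HT-29 and 1.90 in LS174T, neither of them called. In LS174T it was called in 4 of the 13 ways of processing, upward with scaling on all 4 arrays (2.04), the table of the authors (2.09) and division by the landmark signal (2.33), and downward with spike-in scaling (0.226). In HT-29 only division by the landmark signal gave a call (2.40), and the landmark signal of its block 36 on the shRNA-Ascl2/HT-29 array was 0.317.

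miR-128, which represses BMI1, was measured on 3 arrays and lay below the limit on shRNA-Ctr/LS174T. On that array, 3 of the 4 miR-128 spots were still above the 99th percentile of the empty spots. The intensity of miR-128 in HT-29 was 426 ± 62.8 with shRNA-Ascl2 and 380.5 ± 107 with shRNA-Ctr. In LS174T it was 302 ± 80.7 with shRNA-Ascl2 and 19.8 ± 14.8 with shRNA-Ctr. In HT-29 the spots overlapped (345 to 493 against 258 to 503) and the ratio of 1.22 was not called. In LS174T they did not, with 212 to 382 in shRNA-Ascl2 against -1 to 34 in shRNA-Ctr cells, and miR-128 was at least 5.94-fold higher in shRNA-Ascl2 cells, with the value below 50 counted as 50. Of the 669 probes, 58, itself included, were at least as high on this scale. The 2 measured intensities themselves gave a ratio of 14.8, with 9.43 from the spots in blocks 1 to 18 and 26.2 from those in blocks 19 to 36. The landmark signal of block 24 on the shRNA-Ctr/LS174T array was 0.301 and that of block 6 was 0.953, and division by the landmark signal gave a ratio of 9.26. The bound of 5.94 holds for background-subtracted intensities under median scaling of the arrays. The ratio of the measured values was 3.58 with normexp and 4.69 without subtraction of the background. With spike-in scaling of background-subtracted intensities it was 1.76 and not called. Among the control cells, scaled on the 471 probes above 50 on all 4 arrays, miR-128 was at least 6.81-fold higher in HT-29 than in LS174T. This bound too holds for that scaling only, with the value below 50 counted as 50.

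The seed of miR-128 is shared in RefSeq by miR-216a-3p and miR-3681-3p. The array's probe for miR-3681*, matched to miR-3681-3p, was between -15 and -1.75 on the 4 arrays, at the background. No other mature miRNA in the RefSeq table has the seed of miR-9, miR-137 or miR-153.

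miR-137 and miR-153 were not detected in either line. With shRNA-Ascl2 and shRNA-Ctr, in this order, miR-137 was at -1.25 and -4.25 in HT-29 and at -5 and -11.3 in LS174T. miR-153 was at -1 and -2.25 in HT-29 and at -4.5 and -12.3 in LS174T. For each of them 0 of 16 spots were above the 99th percentile of the empty spots. No ratio was taken for either, and at this signal a level below the limit of 50 cannot be told apart from none.

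**Figure D2:**
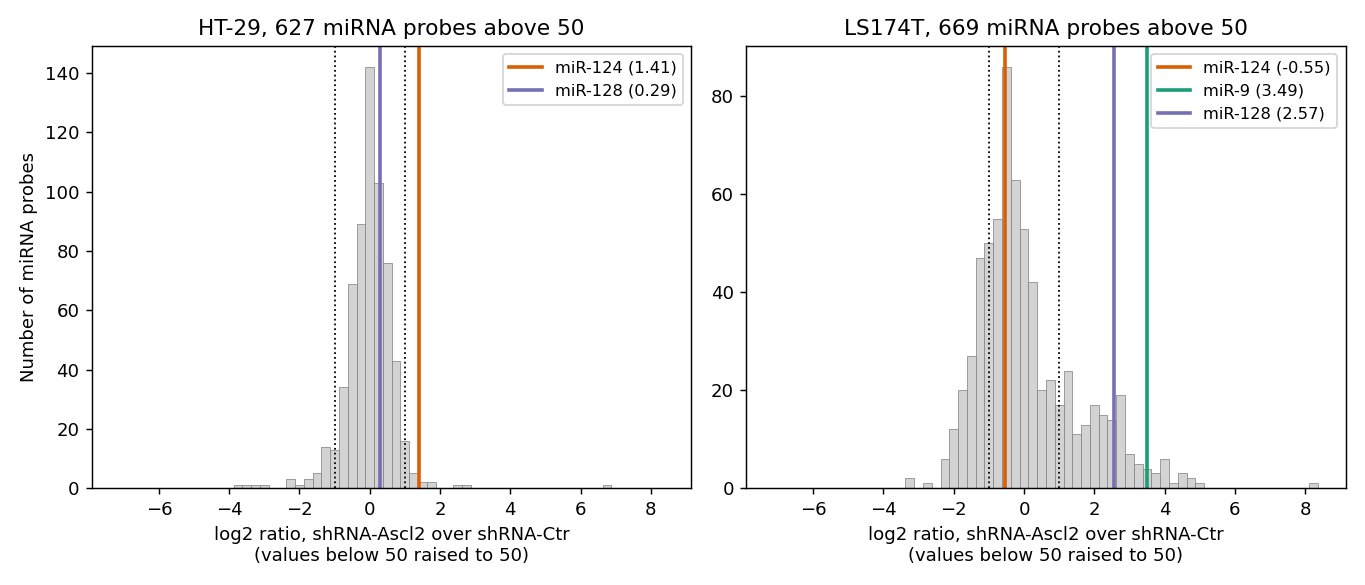
Number of miRNA probes (y axis) by log2 ratio of shRNA-Ascl2 over shRNA-Ctr (x axis, values below 50 raised to 50) in HT-29 (left, 627 probes) and LS174T (right, 669 probes), with colored lines at the neuronal miRNAs and dotted lines at 2-fold. miR-124 lies in the right tail in HT-29 (1.41) and left of 0 in LS174T (-0.55). In LS174T, miR-9 (3.49) and miR-128 (2.57 with the shRNA-Ctr value set to 50) lie in a broad right shoulder. Not drawn here, miR-128 was at 1.84 with normexp and 2.23 without background subtraction. With spike-in scaling, miR-9 was at 0.41 and miR-128 at 0.82 in LS174T.

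In the distribution of ratios, HT-29 was narrow around 0 and LS174T had a broad right shoulder that held miR-9 and miR-128. Over all probes the median ratio was 1.01 in HT-29 and 0.827 in LS174T, with values below 50 counted as 50. Some other signals moved the same way on the LS174T arrays, and others did not. The epithelial miRNAs were called up 8 of 8 times in LS174T, at a median ratio of 6.44, and 0 of 7 times in HT-29 (0.875). Their summed intensity in LS174T was 161222 with shRNA-Ascl2 and 22139 with shRNA-Ctr, and in HT-29 it was 176055 and 207062. Of the 8, miR-215 was below 50 on 3 arrays, and the rest were above 50 on all 4. The spike-in controls, which are not RNA of the cells, were at a median ratio of 8.59 in LS174T, with 37 of 40 called up, and of 1.03 in HT-29, with 0 of 46. The small RNA controls were at 2.13 (13 of 25 up and 1 down) and 0.999. When the arrays were scaled by the spike-in controls instead, which shifted the median log2 ratio of all probes by -3.07 in LS174T, miR-9 was at 1.33 and miR-128 at 1.76, neither of them called. This scaling moves every probe of an array by 1 factor. Blood miRNAs were called up 1 and down 3 times of 5 in LS174T. The 2 markers of stroma, endothelium and muscle measured there were both called down. With values below 50 counted as 50, their ratios were 0.957 and 0.976. The part of the epithelial and small RNA shifts in the ratios of miR-9 and miR-128 was not tested.

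**Figure D3:**
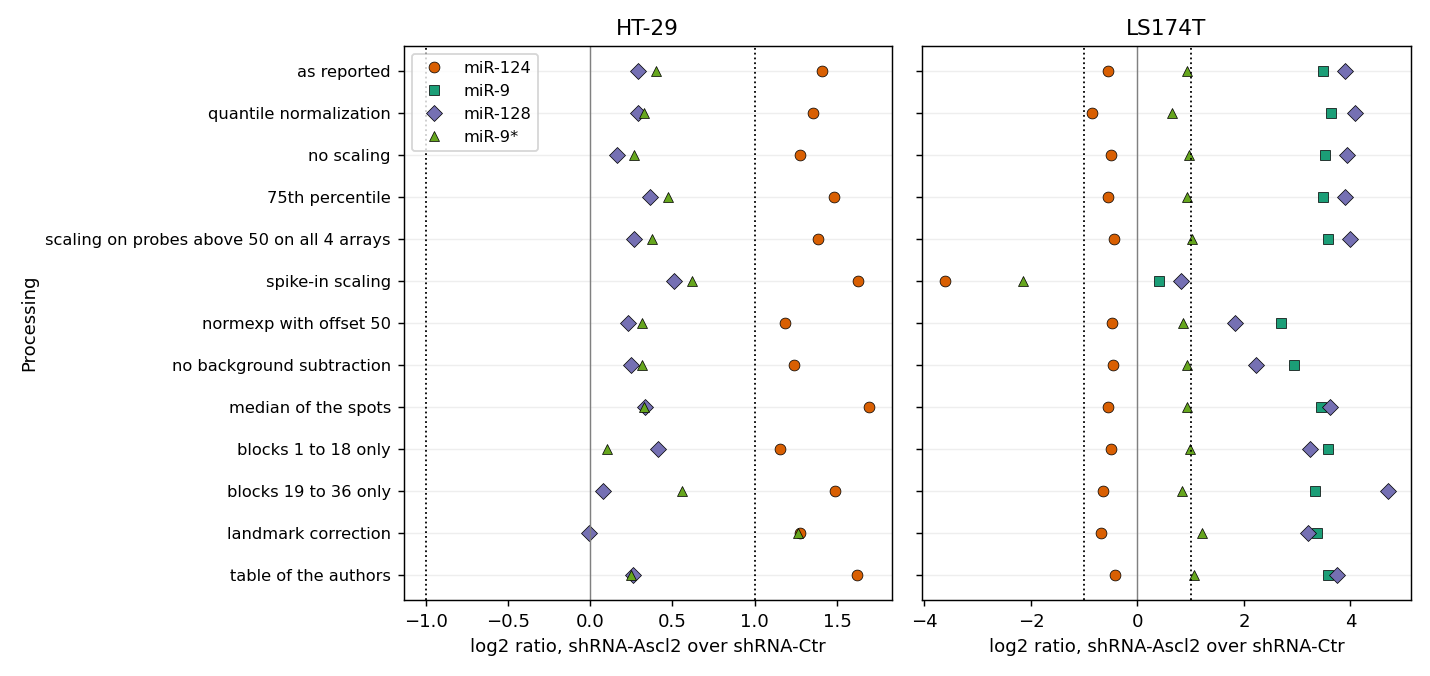
log2 ratio of shRNA-Ascl2 over shRNA-Ctr (x axis) for miR-124, miR-9, miR-128 and miR-9* under each way of processing (y axis) in HT-29 (left) and LS174T (right), with dotted lines at 2-fold. miR-124 is past 2-fold in HT-29 in all 13 rows, and in LS174T spike-in scaling moves every point to the left. The miR-128 points in LS174T use its measured intensity below 50, and miR-9 has none in HT-29.

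Whether a change was shared by the lines was tested in the fit that the design allows, limma over all 4 arrays with the line as a block and 1 residual degree of freedom, on log2 levels with values below 50 raised to 50. No probe of 713 was called at an adjusted p under 0.05 (0.00% in each direction), and 0 were at an unadjusted p under 0.05. For miR-124 the common change was 0.47 on the log2 scale (SE 0.67, limma adjusted p = 0.975), higher in 1 of the 2 lines. For miR-9 it was 1.79 (SE 1.13, limma adjusted p = 0.975) and for miR-128 1.50 (SE 0.83, limma adjusted p = 0.975), values that rest on arrays set to 50. In the same fit the lines were compared, LS174T minus HT-29, and 0 of 713 probes were called in either direction (0.00%), with 35 at an unadjusted p under 0.05. The difference was 2.87 for miR-9 (SE 1.13, limma adjusted p = 0.846), -1.54 for miR-128 (SE 0.83, limma adjusted p = 0.846) and 0.26 for miR-124 (SE 0.67, limma adjusted p = 0.914). The differences of miR-9 and miR-128 also rest on arrays set to 50. With values below 25 raised to 25 instead, they were 3.87 and -2.04. miR-124, miR-9 and miR-128 thus did not pass the test in either contrast, and miR-137 and miR-153, below 50 on every array, did not enter it.

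A list of 15 other nervous-system miRNA probes, the partner arms included, was read in the same way. In HT-29, 10 of the 15 were above 50 on an array, 1 was called up, 1 was called down and 8 were not called, at a median log2 ratio of -0.12 against 0.01 over all probes. In LS174T, 11 were, with 2 up, 1 down and 8 not called, at a median of -0.25 against -0.27. miR-134, miR-138 and miR-383 and the motor neuron miRNA miR-218 were below 50 on all 4 arrays.

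miR-125b, a miRNA of neurons and of many other cells, was the one called up in HT-29, at 213 against 67.3 (ratio 3.47), and in LS174T it was at 35.8 in shRNA-Ascl2 and 67.8 in shRNA-Ctr cells, a difference that was not called. miR-338-3p, known from oligodendrocytes, was called down in HT-29, at 2705 ± 2283 against 6113 ± 1111 (ratio 0.484). In LS174T it was called up, at 1068 against -5.25. With the dim side counted as 50, it was at least 21.1-fold higher there under median scaling. miR-7, a miRNA of neurons and endocrine cells, was at 11976 ± 9952 against 14706 ± 1076 in HT-29 (ratio 0.891) and at 10391 against 477 in LS174T (ratio 21.2). For both of these the spots on the shRNA-Ascl2/HT-29 array were spread nearly as widely as their mean. Of the 4 arrays, miR-338-3p, miR-7 and miR-128 thus had their lowest signal on shRNA-Ctr/LS174T. So did the epithelial miRNAs other than miR-215, such as miR-192 at 279. The spike-in controls were lower on that array too, at a median ratio of 8.59 in LS174T. miR-129-3p was the one called down in LS174T, at 18.8 against 58.5, and with the dim side counted as 50 it was at least 1.19-fold lower.

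**Figure D4:**
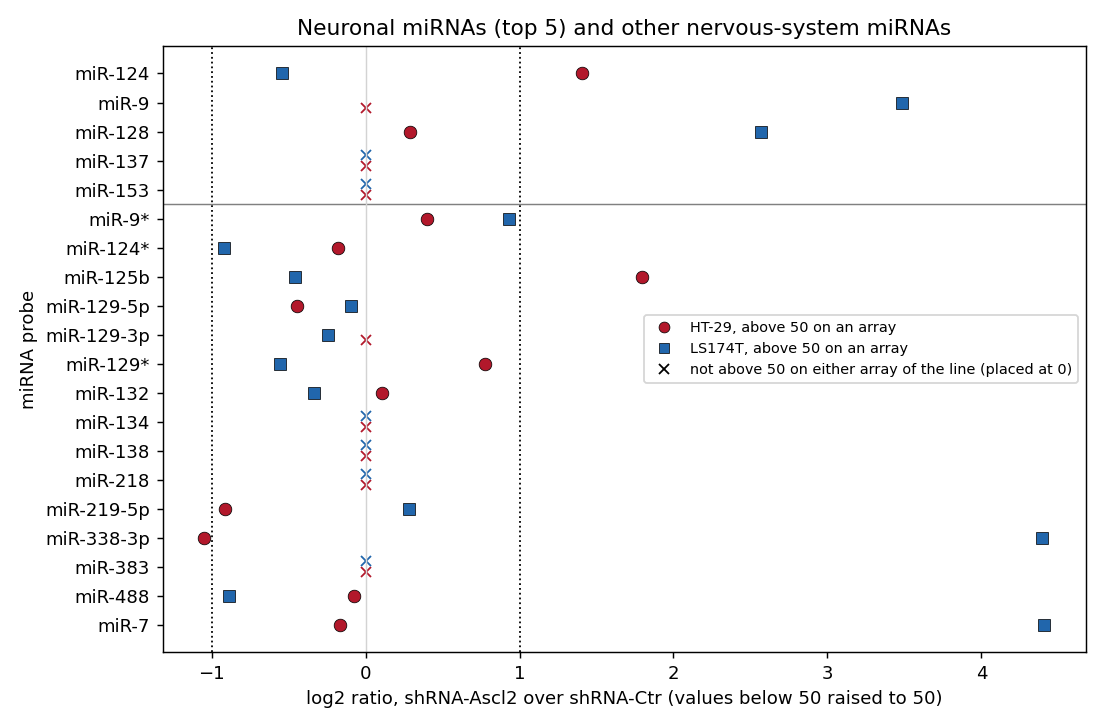
log2 ratio of shRNA-Ascl2 over shRNA-Ctr (x axis, values below 50 raised to 50) for the 5 neuronal miRNAs (above the grey line) and the 15 other nervous-system miRNA probes, with HT-29 as circles, LS174T as squares, crosses for those not above 50 and dotted lines at 2-fold. miR-9, miR-128, miR-338-3p and miR-7 are past 2-fold upward in LS174T, and miR-124 and miR-125b in HT-29.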

How the data were processed

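Per the file headers and the methods, the authors scanned the arrays and extracted foreground and background intensity of 12312 spots per array with GenePix Pro 6.0; these deposited intensity values are linear and not normalized. A second deposited table holds the authors' normalized signal, used as an alternative. Their lists of changed miRNAs hold their own ratios, which were not used, nor were 24 further columns of values per sample.

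Background was subtracted, the 4 spots of a probe were averaged, and arrays were scaled on the medians over 544 (HT-29) and 507 (LS174T) miRNA probes above 50 on both arrays. limma 3.58.1 (R 4.3.3) with Benjamini-Hochberg adjustment was fitted across all probes above 50 on at least 1 array, and python 3.11.15 was used otherwise. Both steps were tested on simulated data. The 5 miRNAs, the lists and the alternatives were chosen with earlier results of these data known. All 5 are named with their values, of the other nervous-system miRNAs those called in a line, plus probes with a shared seed and the 3 nearest in pattern. Array names were matched to RefSeq arms by hand. The number of arrays limits the precision, and with 1 array per condition p-values of the common fit measure only the spread left between 4 arrays.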

Additional observations from a re-analysis of the deposited data

Results flagged for a closer look

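The ratios of 7 nervous-system miRNAs measured in both lines had opposite signs in HT-29 and LS174T. Whether they differ between these lines was not tested, since each line has 1 array per vector. miR-128, miR-9*, miR-124*, miR-129-5p and miR-488 were measured in both lines too, and each had the same sign in both. How often signs were opposite over all probes was not counted, so whether 7 are many is not known. A ratio under 1 in LS174T was common, with 295 of the 536 human probes measured in both lines, which is not a count of opposite signs. On the log2 scale, with values below 50 raised to 50, miR-124 was at 1.41 in HT-29 and -0.55 in LS174T. miR-125b was at 1.79 and -0.46, miR-338-3p at -1.05 and 4.40, and miR-7 at -0.17 and 4.40, each of them called in at least 1 line. Not called in either line were miR-129* at 0.77 and -0.55, miR-219-5p at -0.91 and 0.28, and miR-132 at 0.11 and -0.34. In HT-29, miR-132 lay near the limit of 50, at an intensity of 52 with shRNA-Ascl2 and 52.75 with shRNA-Ctr.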

How the results depend on the processing

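The number of neuronal miRNAs called in HT-29 was 1 as reported and under 15 of 16 alternatives, and 0 with a threshold of 3-fold. In LS174T it was 2 as reported and under 15 of 16, and 1 with spike-in scaling, where only miR-124 passed, downward. The limma change of miR-124 common to both lines was 0.47 and turned to -0.996 with spike-in scaling (limma adjusted p = 0.847), while those of miR-9 and miR-128 stayed positive, down to 0.21 and 0.66. No limma alternative called a probe, and 0 or 1 probes were at an unadjusted p under 0.05 for the vector and 2 to 37 for the line. Scaling changed the balance of all calls. In HT-29 it was 29 up and 53 down as reported, 20 and 63 without scaling, 39 and 46 at the 75th percentile, and 56 and 39 with spike-in scaling. In LS174T it was 179 and 185, and 25 and 562 with spike-in scaling. With normexp and its offset of 50, which by itself draws ratios towards 1, 6 and 21 were called in HT-29 and 137 and 70 in LS174T. The median log2 ratio of all probes moved by -0.13 without scaling and by 0.22 with spike-in scaling in HT-29, and by 0.10 in LS174T when scaled on all 4 arrays. The causes were not tested. Leaving out an array leaves no comparison in its line. No paired analysis was possible because each condition has 1 array, other than the limma fit reported, which takes the cell line as a block and so sets the vectors against each other within each line. Signals under 50 limit miR-9 in HT-29, miR-128 in shRNA-Ctr/LS174T, and miR-137 and miR-153 throughout.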
